A study of Homo sapiens with 24 samples.

Results

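Rapamycin was tested in 1 of the stable lines of the series, the SW480 line labelled NFIL3, and is described here across all detected genes. The arrays were chosen by their sample titles: 2 arrays of the NFIL3 line in Rapamycin and 2 arrays of the same line in DMSO, 4 of the 24 arrays of the series, with 12141 genes tested of which 11825 were detected on at least 1 of the 4 arrays. SW480 is an established line of human colon cancer cells. All lines had been infected with a pBABE-puro retrovirus and kept as stable cells, so the DMSO groups carry the vector too. The virus carried NFIL3, BOP1 or CKS2, or was that of the control line, and each line was kept for 24 h with an inhibitor or its solvent. The groups used here are the NFIL3 line in 33.3 nM Rapamycin, the NFIL3 line in LY294002 at 3.3 µM (an inhibitor of phosphatidylinositol 3-kinase), the NFIL3 line in SB203580 at 3.3 µM (an inhibitor of the p38 MAP kinases), the NFIL3 line in DMSO, and the control line in DMSO. Each group had 2 arrays, which the labels call biological replicates without saying whether the cultures were separate. The p-values therefore reflect only how far the 2 arrays of a group differ, pooled over all 12 groups of the series, and that spread may be technical. The labels do not say whether a line is a pool or 1 clone, and Rapamycin was given to no other line, so its effect cannot be compared between lines.

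Rapamycin is a macrolide that binds the small protein FKBP1A, and the pair then blocks mTORC1, the complex of the mTOR kinase with RPTOR. In growing cells mTORC1 is active when amino acids, growth factors and energy are in supply. It is known to raise protein synthesis, to raise the making of amino acids and nucleotides through the transcription factor ATF4, and to raise sterol and fatty acid synthesis through SREBP, while it holds back autophagy and the making of lysosomes. Active S6 kinase also turns down insulin receptor substrates, a feedback that weakens when mTORC1 is blocked.

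Levels are given as log2 of the background-corrected, normalized bead signal, and differences as Rapamycin minus DMSO on that scale. In a culture of 1 cell type, fewer cells and less RNA per cell cannot be told apart in such values. The mean raw signal was 1029 and 1038 on the Rapamycin arrays, against 1187 and 1117 on the DMSO arrays, and its part in the results was not tested. The 2 arrays of a group correlated at 0.995 over genes in both groups. Of 10 markers of the epithelial origin of SW480 cells, 6 (CDH1, CDX2, EPCAM, KRT8, KRT18 and KRT19) were detected on both arrays of both groups, with a summed signal of 75990 to 78769 under Rapamycin and of 70183 to 72286 in DMSO. Markers of other cell types were mostly below detection, with 4 of 12 leukocyte, 2 of 10 fibroblast, 1 of 9 endothelial and 3 of 8 hepatocyte markers passing the filter. Their differences between Rapamycin and DMSO lay between −0.91 (CD14) and 0.50 (TF) and did not pass the test, with unadjusted p of 0.01974 and 0.01642 for these genes.

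NFIL3, the transcriptional repressor for which the line is named, had log2 levels of 10.04 and 9.93 under Rapamycin, against 10.48 and 10.37 in DMSO. It fell by 0.43 ± 0.10 (standard error, as for every difference here; adjusted p = 0.0147). This call was lost without Rapamycin array 2 (adjusted p = 0.11) or DMSO array 1 (0.106). In DMSO the NFIL3 line was no higher than the control line, whose arrays read 10.39 and 10.47 (difference between NFIL3 line and control line below 0.01 in size, adjusted p = 0.984). Whether the probe lies in the part of NFIL3 that the virus carried is not known here, so these levels do not check the label, and the line is named only as labelled. The drug's partner FKBP1A (difference 0.13 ± 0.11, adjusted p = 0.468) and MTOR itself (−0.04 ± 0.12, adjusted p = 0.899) did not pass the test.

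Rapamycin changed 924 genes, 7.61% of those tested, at an adjusted p under 0.05 in limma. Of these, 428 were higher (3.53%) and 496 lower (4.09%) under Rapamycin than in DMSO. The changes were small: 11 genes rose and 8 fell more than 2-fold, and 150 rose and 156 fell more than 1.5-fold. For each of the 924 genes the 2 groups did not overlap, which was also so for 54.4% of all genes tested. These calls rest on a spread shared by all 12 groups. With the 4 arrays alone, limma called 0 genes (smallest adjusted p 0.0718, 2652 genes at an unadjusted p under 0.05, against 2969 with all groups). Without 1 array the count was 341 (Rapamycin array 1), 170 (Rapamycin array 2), 164 (DMSO array 1) or 260 (DMSO array 2). A core of 71 genes, 33 higher and 38 lower, was called in the full fit and without each of the 4 arrays in turn, and genes of this core are pointed out below.

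**Figure D1:**
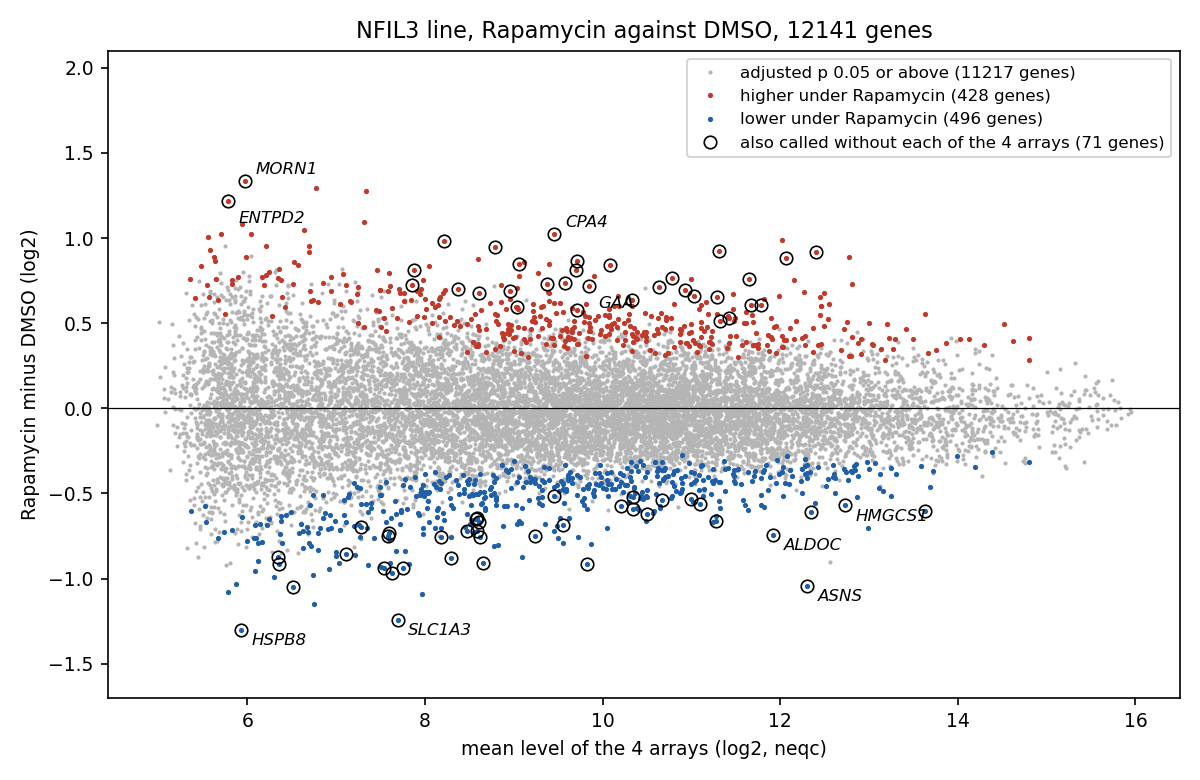
Difference between Rapamycin and DMSO (log2, vertical axis) against the mean level of the 4 arrays (log2, horizontal axis) for 12141 genes, 1 point a gene. The 428 higher (red) and 496 lower (blue) genes lie mostly within 1 log2 unit of 0 at every level, and the 71 genes called without each of the 4 arrays (ringed) include ASNS, SLC1A3 and HMGCS1 below the line and GAA, CPA4 and MORN1 above it.

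Some genes of amino acid synthesis and supply fell under Rapamycin. The gene lists used here and below were chosen with earlier results of these data known. They also hold the genes given as markers of this comparison, ASNS, SLC1A3 and HMGCS1. Their shares therefore describe the lists and are no independent support. Of 28 genes of the ATF4 and amino acid synthesis list, 23 were tested, 6 fell (26.1%, against 4.09% of all genes), 0 rose and 17 of the 23 differences were negative, with a median of −0.21 against −0.02 over all genes. ASNS, asparagine synthetase, had log2 levels of 11.75 and 11.81 under Rapamycin, against 12.79 and 12.86 in DMSO. Both Rapamycin arrays lay about 1 log2 unit below both DMSO arrays, a 2.06-fold fall (−1.04 ± 0.11, adjusted p = 0.0001996), and a second ASNS probe moved by −1.01. PHGDH, the first enzyme of serine synthesis, had 13.36 and 13.29 under Rapamycin, against 13.83 and 14.03 in DMSO (−0.61 ± 0.10, adjusted p = 0.00368). TRIB3, a pseudokinase whose gene is a known ATF4 target, had 10.18 and 10.19 under Rapamycin, against 10.67 and 10.94 in DMSO (−0.62 ± 0.10, adjusted p = 0.00368). ASNS, PHGDH and TRIB3 belong to the core of 71. The other members that fell were the mitochondrial serine hydroxymethyltransferase SHMT2 (−0.52), the serine synthesis enzyme PSAT1 (−0.44) and the aspartate aminotransferase GOT1 (−0.37). Their calls were lost without any 1 of the 4 arrays, with adjusted p from 0.0774 to 0.0915 for SHMT2, from 0.065 to 0.165 for PSAT1 and from 0.0695 to 0.184 for GOT1. ATF4 mRNA itself read 14.25 and 14.27 under Rapamycin, against 14.63 and 14.46 in DMSO, a difference of −0.28 that missed the threshold (adjusted p = 0.0533). The dimmer ATF4 probes moved by only 0.0088 and −0.11.

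Promoter stretches of ASNS, SLC1A3 and GOT1 are shown because these genes of amino acid synthesis and uptake fell and hold the core of the C/EBP-ATF response element, the sequence that ATF4 dimers are known to bind. The stretches come from RefSeq (build GRCh38.p14) and run 5′ to 3′ on the gene's strand, with the motif TGATGNAA in capitals, read on the opposite strand in GOT1.
ASNS, chr7:97872434-97872511, minus strand: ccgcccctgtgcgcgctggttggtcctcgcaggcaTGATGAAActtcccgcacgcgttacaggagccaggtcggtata
SLC1A3, chr5:36596338-36596410, plus strand: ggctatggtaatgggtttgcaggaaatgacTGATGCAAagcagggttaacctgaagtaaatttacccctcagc
GOT1, chr10:99430780-99430857, minus strand: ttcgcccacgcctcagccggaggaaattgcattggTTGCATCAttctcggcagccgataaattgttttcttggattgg
The motif begins 68 bases before the most upstream listed start of ASNS, 220 before that of SLC1A3 and 198 before that of GOT1. Windows of 250 bases before a start were found for 9702 of the tested genes (14049 windows, as a gene can have several starts), and a gene was counted when any window held the motif on either strand. By this count the motif was in 222 of 9702 genes (2.29%), in 21 of 406 genes that fell (5.17%) and in 4 of 328 that rose (1.22%). Its presence did not go with a fall in every case. CEBPG, ATF3 and MTHFD1L of the ATF4 list also held it, with differences of −0.0045, −0.10 and 0.22, none of which passed the test. Of the transporters and aminoacyl-tRNA synthetases, SLC1A5 (−0.0165), AARS1 (−0.15) and IARS1 (−0.05) held it without passing the test. GARS1 (−0.47) held it and fell.

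Amino acid transporters and aminoacyl-tRNA synthetases, which bring amino acids into the cell and load them onto tRNA, also held genes that fell and none that rose. SLC1A3, a glutamate and aspartate transporter, had log2 levels of 7.09 and 7.05 under Rapamycin, against 8.39 and 8.23 in DMSO. SLC1A3 fell 2.37-fold (−1.24 ± 0.15, adjusted p = 0.000655) and was part of the core, with both Rapamycin arrays more than 1 log2 unit below the DMSO arrays. Of 22 transporters tested (of 26), 3 fell (13.6%, against 4.09% of all genes), with a median of −0.11. Besides SLC1A3 these were the aromatic amino acid carrier SLC16A10 (−0.68) and the leucine transporter subunit SLC7A5 (−0.36). Without any 1 of the 4 arrays their adjusted p lay between 0.0648 and 0.0693 for SLC16A10 and between 0.0883 and 0.153 for SLC7A5. Of 18 synthetases tested (of 20), 4 fell (22.2%), with a median of −0.09. YARS1, which loads tyrosine, had 12.04 and 12.04 under Rapamycin, against 12.61 and 12.69 in DMSO, and belongs to the core (−0.61 ± 0.09, adjusted p = 0.00234). GARS1 (−0.47), TARS1 (−0.37) and EPRS1 (−0.33) fell in the full fit. GARS1 was lost without Rapamycin array 2 (0.11), DMSO array 1 (0.0567) or DMSO array 2 (0.0929), while TARS1 (0.111 to 0.148) and EPRS1 (0.0934 to 0.201) were lost without any 1 array.

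**Figure D2:**
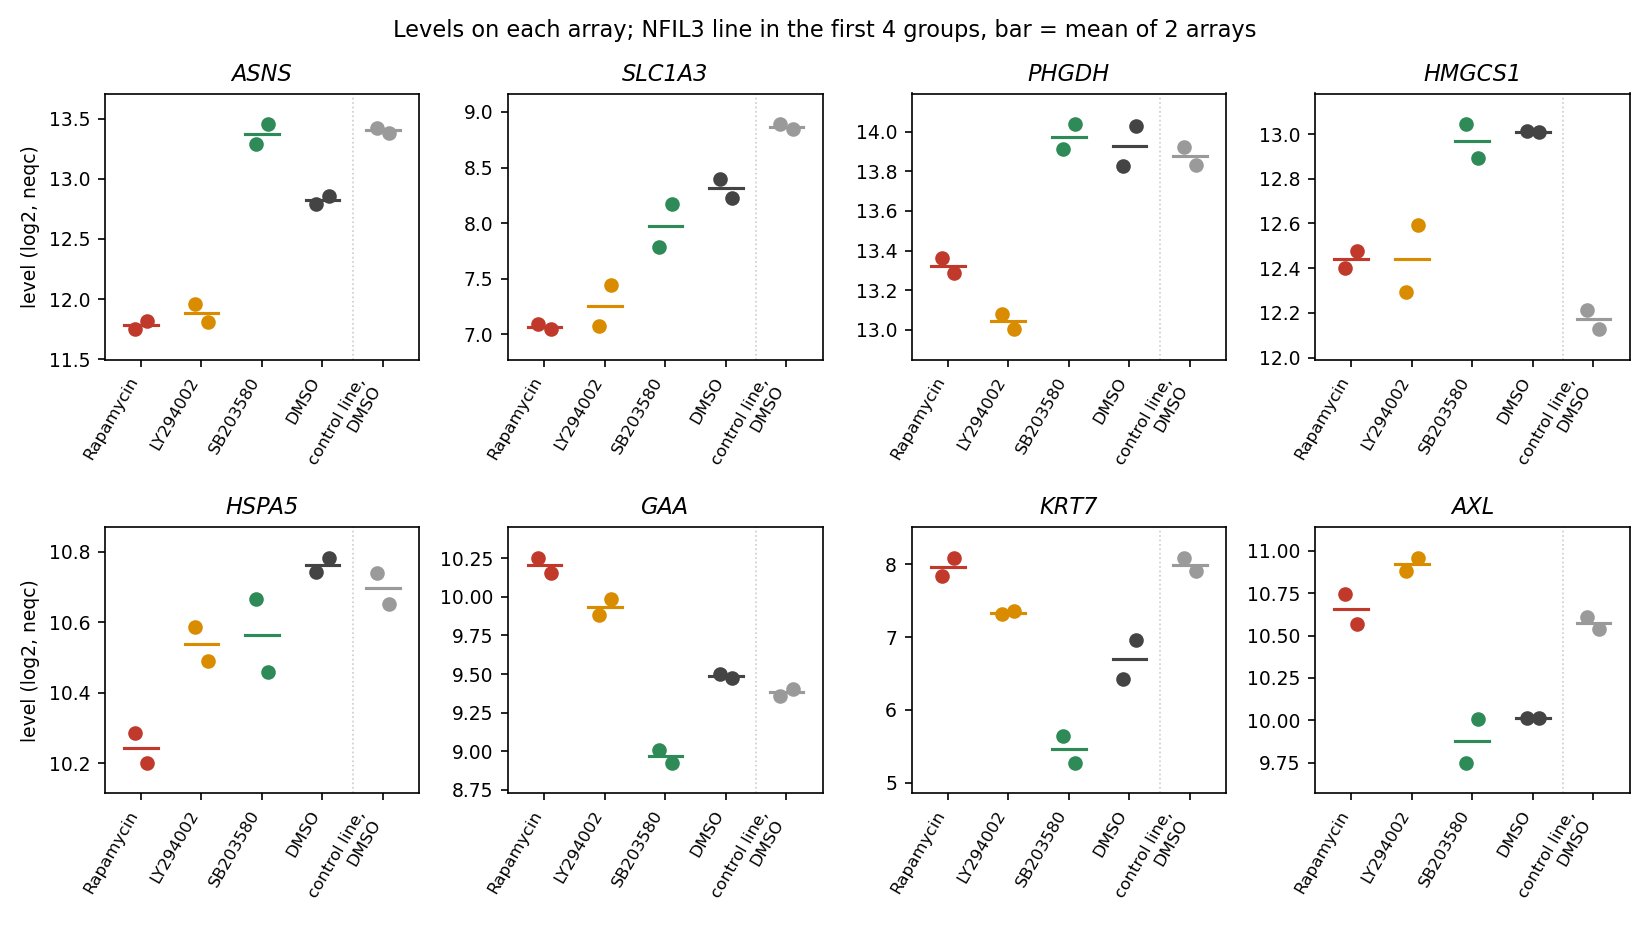
Log2 level on each array (points) and mean of 2 arrays (bars) for 8 genes in the NFIL3 line under Rapamycin, LY294002, SB203580 and DMSO, and in the control line in DMSO (right of the dotted line). ASNS, SLC1A3, PHGDH, HMGCS1 and HSPA5 lie lower under Rapamycin than in DMSO and GAA, KRT7 and AXL higher. The 2 groups did not overlap for any of the 8, as for every gene called.

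Of the 40 gene lists, chosen with earlier results of these data known, cholesterol synthesis had the largest share of members that fell. Of 21 genes tested (of 26), 7 fell (33.3%, against 4.09% of all genes) and 1 rose, with 17 differences below 0 and a median of −0.30. HMGCS1, which makes HMG-CoA at the head of the mevalonate pathway, had log2 levels of 12.40 and 12.48 under Rapamycin, against 13.01 and 13.01 in DMSO. The groups were well apart, and HMGCS1 was in the core (1.48-fold lower, −0.57 ± 0.10, adjusted p = 0.00508). INSIG1, an SREBP target that holds SREBP in the endoplasmic reticulum, had 12.76 and 12.53 under Rapamycin, against 13.32 and 13.37 in DMSO (−0.70 ± 0.13, adjusted p = 0.00555). Its call was lost only without Rapamycin array 2 (0.0648) among these 4 omissions, and its second probe moved by −0.52. Later enzymes of the pathway fell too: mevalonate kinase MVK (−0.57), the decarboxylase MVD (−0.57), lanosterol synthase LSS (−0.57), the sterol desaturase SC5D (−0.61) and ACAT2 (−0.51), which makes acetoacetyl-CoA. Without Rapamycin array 1 the adjusted p was 0.0602 for LSS, 0.0691 for MVK, 0.0683 for SC5D and 0.0623 for MVD, and without Rapamycin array 2 it was 0.0574 for SC5D, 0.0771 for MVD and 0.123 for ACAT2. Without DMSO array 1 it was 0.0679 for LSS and MVK, 0.0856 for SC5D, 0.105 for MVD and 0.0749 for ACAT2, and without DMSO array 2 it was 0.0637 for ACAT2.

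One sterol gene went the other way. TM7SF2, a sterol C14-reductase, had 12.05 and 12.11 under Rapamycin, against 11.63 and 11.66 in DMSO (0.43 ± 0.11, adjusted p = 0.0294). It was lost without any 1 array (0.0833 to 0.155) and under median scaling. Fatty acid synthesis had 3 falls and 0 rises among 20 genes tested (of 22, 15% lower against 4.09% of all genes), with a median of −0.07. The acyl-CoA synthetase ACSL1, in the core, had 9.02 and 8.70 under Rapamycin, against 9.54 and 9.67 in DMSO (−0.75 ± 0.12, adjusted p = 0.00302). The elongase ELOVL6 (−0.46) was lost without Rapamycin array 1 (0.0935) or DMSO array 1 (0.0966). The acetyl-CoA synthetase ACSS2 (−0.56) was lost without Rapamycin array 2 (0.239), DMSO array 1 (0.145) or DMSO array 2 (0.0712). Not counted in these 3 falls was LPIN1, a phosphatidate phosphatase that mTORC1 phosphorylates and that restrains SREBP. LPIN1 had 11.12 and 10.81 under Rapamycin, against 11.66 and 11.54 in DMSO (−0.63 ± 0.11, adjusted p = 0.00518). It was lost without Rapamycin array 2 (0.0678) or DMSO array 1 (0.0563).

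Glycolysis and hypoxia genes fell in 4 of 29 cases tested (of 33, 13.8% lower against 4.09% of all genes) and rose in 0, with a median of −0.16. ALDOC, an aldolase, read 11.55 and 11.54 under Rapamycin, against 12.37 and 12.20 in DMSO, and was in the core (1.67-fold lower, −0.74 ± 0.11, adjusted p = 0.00234). Hexokinase HK2 had 9.51 and 9.54 under Rapamycin, against 10.13 and 10.10 in DMSO (−0.59 ± 0.11, adjusted p = 0.00675), and was lost only without DMSO array 1 (0.0563) among these 4 omissions. PFKFB4, which sets the level of an activator of phosphofructokinase, fell by 0.51 and the collagen prolyl hydroxylase subunit P4HA1 by 0.48 on the log2 scale. PFKFB4 was lost without Rapamycin array 2 (0.065) or DMSO array 1 (0.0567), and P4HA1 without Rapamycin array 1 (0.131), Rapamycin array 2 (0.0772) or DMSO array 1 (0.218).

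In the unfolded protein response list 3 of 20 genes tested (of 23) fell (15%, against 4.09% of all genes), 0 rose, and 17 differences were below 0, with a median of −0.24. HSPA5, the chaperone BiP, had log2 levels of 10.29 and 10.20 under Rapamycin, against 10.74 and 10.78 in DMSO (−0.52 ± 0.11, adjusted p = 0.0143). CANX, the lectin chaperone calnexin, had 10.23 and 10.16 under Rapamycin, against 10.69 and 10.76 in DMSO (−0.53 ± 0.12, adjusted p = 0.0171), and its second probe moved by −0.71. XBP1, a transcription factor of the response, had 12.09 and 12.19 under Rapamycin, against 12.49 and 12.45 in DMSO (−0.33 ± 0.08, adjusted p = 0.0163). The groups did not overlap for any of the 3 genes, as for every gene called. A second XBP1 probe of like level did not move (0.03), and the XBP1 call was lost when probes were averaged. HSPA5 was lost without Rapamycin array 2 (0.098), DMSO array 1 (0.0693) or DMSO array 2 (0.0788), and CANX (0.061 to 0.107) and XBP1 (0.052 to 0.104) without any 1 array.

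All 3 of these genes hold the endoplasmic reticulum stress element, CCAAT and CCACG held 9 bases apart, in a window before a start, and HSPA5 and XBP1 are shown with it in capitals (RefSeq, GRCh38.p14, gene strand).
HSPA5, chr9:125241356-125241444, minus strand: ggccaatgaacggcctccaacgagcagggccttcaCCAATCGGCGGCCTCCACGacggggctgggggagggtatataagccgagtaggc
XBP1, chr22:28800570-28800656, minus strand: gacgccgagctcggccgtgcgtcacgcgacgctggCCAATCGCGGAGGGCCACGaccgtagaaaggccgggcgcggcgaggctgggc
The element begins 66 bases before the start of HSPA5 and 52 before that of XBP1. It was found in 15 of 9702 genes (0.155%), in 5 of 406 that fell (1.23%) and in 0 of 328 that rose. In the list itself 7 of 20 genes held it, so 4 more members (CALR, CRELD2, HSP90B1 and PDIA6) held it without passing the test. Every match holds CCAAT, the NF-Y box, on the gene's strand or the opposite one. That box alone was in 41.8% of all genes, 50% of those that fell and 42.1% of those that rose. The E-box CACGTG was in 11.2%, 11.8% and 12.5% of the same sets, and the sterol element TCACNCCAC in 1.16%, 1.48% and 1.83%, each searched on both strands. Of 19 cholesterol synthesis genes with a window, 1 held the sterol element, and 0 of the 6 of these that fell held it. Only this exact sequence was searched and it is rare in all genes, so the count does not show that these genes lack a sterol element.

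The genes of mTORC1 and its partners hardly moved as a group. Of 40 tested (of 42), 1 rose (2.5%, against 3.53% of all genes) and 2 fell (5%, against 4.09%), 20 differences lay on either side of 0, and the median was −0.0016, a value that changed sign between settings. TSC2, a subunit of the complex that switches mTORC1 off, had 9.19 and 9.24 under Rapamycin, against 8.74 and 8.72 in DMSO (0.49 ± 0.09, adjusted p = 0.00712), and was lost without Rapamycin array 2 (0.0613) or DMSO array 1 (0.0514). SESN3, a sestrin that restrains mTORC1, was detected on both DMSO arrays and on neither Rapamycin array, and was at least 1.55-fold lower (5.46 and 5.74 under Rapamycin, against 6.33 and 6.78 in DMSO, adjusted p = 0.0225). This call was lost without any 1 array (0.0505 to 0.168). Of 19 insulin and growth factor signalling genes tested (of 26), IRS2, the insulin receptor substrate, was the only one that rose (5.26%, against 3.53% of all genes, with 10.14 and 10.05 under Rapamycin, against 9.70 and 9.49 in DMSO, 0.50 ± 0.09, adjusted p = 0.00631). It was lost only without DMSO array 2 (0.0676) among these 4 omissions. INPP4B, a phosphoinositide phosphatase, was the only one that fell (−0.45, adjusted p = 0.0353), and was lost without Rapamycin array 1 (0.0921), Rapamycin array 2 (0.177) or DMSO array 1 (0.282).

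Lysosome and autophagy genes showed 2 rises and 2 falls among 42 tested (of 50). That is 4.76% each way, near the 3.53% higher and 4.09% lower of all genes, so the counts show nothing about the list and the genes are given singly. GAA, the lysosomal glucosidase that breaks down glycogen, had log2 levels of 10.25 and 10.15 under Rapamycin, against 9.50 and 9.48 in DMSO. The arrays of the 2 groups were far apart and GAA was in the core (1.64-fold higher, 0.72 ± 0.09, adjusted p = 0.000963), with a second probe at 0.63. WIPI2, which acts in the making of autophagosomes, rose by 0.47 ± 0.10 (adjusted p = 0.0108) and was lost without Rapamycin array 1 (0.0774) or DMSO array 2 (0.0956). The proton pump subunits ATP6V1A (−0.39) and ATP6V1B2 (−0.41) fell, and both were lost without any 1 array (0.0812 to 0.0905 for ATP6V1A and 0.124 to 0.18 for ATP6V1B2). Among 23 FOXO targets tested (of 25), IRS2 and YPEL3 rose (8.7%, against 3.53% of all genes) and SESN3 fell (4.35%, against 4.09%). YPEL3, a growth suppressor, had 8.44 and 8.28 under Rapamycin, against 7.66 and 7.55 in DMSO (0.76 ± 0.15, adjusted p = 0.0097). It was lost without Rapamycin array 1 (0.067), DMSO array 1 (0.0515) or DMSO array 2 (0.0676).

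The mRNAs of the translation machinery moved little. Of 68 cytosolic ribosomal protein genes tested (of 79), 4 rose (5.88%, against 3.53% of all genes), 0 fell, and the median was 0.04. RPL14 stood apart, with 12.42 and 12.62 under Rapamycin, against 11.31 and 11.74 in DMSO (1.99-fold higher, 0.99 ± 0.20, adjusted p = 0.00932), though a second RPL14 probe moved by only 0.47. RPL7 (0.41), RPL5 (0.37) and RPL4 (0.29) made up the rest. RPL14 was lost without Rapamycin array 2 (0.0772) or DMSO array 1 (0.0967), RPL7 without Rapamycin array 2 (0.215), DMSO array 1 (0.082) or DMSO array 2 (0.166), and RPL5 (0.092 to 0.114) and RPL4 (0.0738 to 0.228) without any 1 array. RPL4 and RPL7 were also lost under median scaling. Ribosomal protein genes have many near-identical copies, so their probes may read more than 1 gene. In ribosome biogenesis 1 of 38 genes tested (of 41) fell and 0 rose, with a median of −0.0088, so this list gave no share above the background. The gene was LYAR, a nucleolar protein (−0.39, adjusted p = 0.0203), whose second probe moved by −0.27. Its call was lost without Rapamycin array 1, DMSO array 1 or DMSO array 2.

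Genes of mitosis had nearly all their differences below 0, most of them short of the threshold. Of 32 G2/M genes tested (of 32), 31 differences were negative and the median was −0.24, yet only 3 passed the test (9.38%, against 4.09% of all genes). CCNB1, the mitotic cyclin, had 11.48 and 11.58 under Rapamycin, against 12.05 and 12.17 in DMSO (−0.58 ± 0.13, adjusted p = 0.0131). The spindle checkpoint kinase BUB1 (−0.58, adjusted p = 0.0282) and the kinase PLK1 (−0.47, adjusted p = 0.0315) were the others. All 3 were lost without any 1 array, with adjusted p from 0.0563 to 0.0861 for CCNB1, from 0.0569 to 0.194 for BUB1 and from 0.0515 to 0.228 for PLK1, which was also lost under median scaling. The replication genes CDC6 (−0.65), POLA2 (−0.46) and MCM10 (−0.42) fell among 33 tested (9.09%, against 4.09% of all genes), and 0 rose. CDC6 (0.0639 to 0.0846) and POLA2 (0.0685 to 0.134) were lost without any 1 array, and MCM10 without Rapamycin array 1 (0.238), DMSO array 1 (0.0986) or DMSO array 2 (0.149). Proteasome subunits were similar in sign, with 28 of 32 differences below 0 and a median of −0.15. But a call was made for only 1 of them, PSMC6 (3.12%, against 4.09% of all genes). This call came with unlike probes (−0.40 for the brighter, 0.44 for the dimmer) and was lost without Rapamycin array 2 (0.142), DMSO array 1 (0.0694) or DMSO array 2 (0.0887). In the G1 list, cyclin CCND1 rose (0.41, adjusted p = 0.0282) and RB1 fell (−0.44, adjusted p = 0.0146) among 20 genes tested. That is 5% each way, near the 3.53% higher and 4.09% lower of all genes, so the counts show nothing about the list. Both calls were lost without any 1 array (0.0717 to 0.156 for CCND1 and 0.0632 to 0.0889 for RB1).

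**Figure D3:**
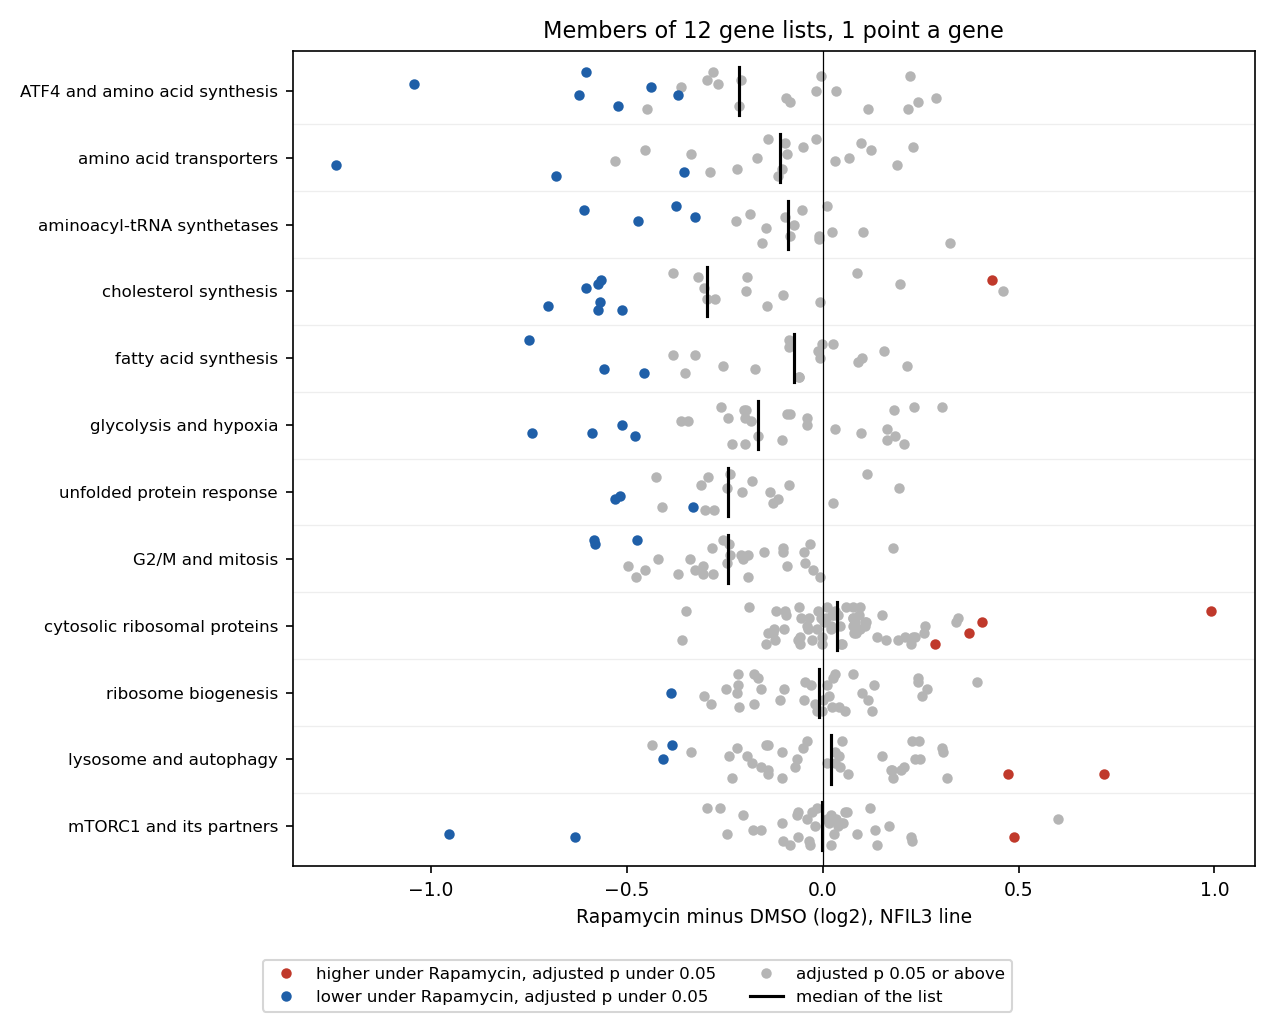
Difference between Rapamycin and DMSO (log2) for the tested members of 12 gene lists, 1 point a gene, with the list's median as a bar. Blue points (lower, adjusted p under 0.05) stand in the lists of amino acid, sterol, glycolytic and chaperone genes with the median left of 0, while the medians of ribosomal protein, ribosome biogenesis, lysosome and mTORC1 genes lie within 0.04 of 0.

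The 12 largest rises and falls were taken by fitted difference, in which a gene below background in 1 group has no fixed rank. The rises were of genes of varied roles. MORN1, a protein of MORN repeats, was detected on both Rapamycin arrays and on neither DMSO array (6.79 and 6.50 under Rapamycin, against 5.26 and 5.35 in DMSO) and was at least 1.51-fold higher (adjusted p = 0.0001996). ENTPD2, an ectoenzyme that splits extracellular ATP, was also below background on both DMSO arrays (6.39 and 6.39 under Rapamycin, against 5.08 and 5.26 in DMSO) and at least 1.27-fold higher (adjusted p = 0.00368). CPA4, a carboxypeptidase, had 10.00 and 9.94 under Rapamycin, against 8.98 and 8.91 in DMSO (2.03-fold higher, 1.02 ± 0.14, adjusted p = 0.00201). These 3 genes were in the core, as was CPNE7, a copine (8.67 and 8.73 under Rapamycin, against 7.77 and 7.66 in DMSO, 0.98 ± 0.14), whose 4 dimmer probes moved by 0.16 to 0.44 and whose call was lost when probes were averaged. KRT7, a simple-epithelium keratin, had 7.85 and 8.09 under Rapamycin, against 6.43 and 6.96 in DMSO (1.27 ± 0.23, adjusted p = 0.00524), and was lost without Rapamycin array 2 (0.058) or DMSO array 1 (0.0679). MTCL1, a microtubule crosslinker, rose by 1.29 ± 0.24 (adjusted p = 0.00662) and was lost without Rapamycin array 1 (0.0588).

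EXD3 (1.09), the mitochondrial nucleotidase NT5M (1.04) and 3 genes below background on both DMSO arrays completed the 12 with RPL14. Those 3 were the zinc finger gene ZBTB12 (at least 1.35-fold higher), HPD of tyrosine breakdown (at least 1.43-fold) and the Hedgehog receptor PTCH1 (at least 1.13-fold). EXD3 was lost without Rapamycin array 1 (0.163), DMSO array 1 (0.103) or DMSO array 2 (0.0849), and NT5M without any 1 array (0.0789 to 0.135). ZBTB12 was lost without Rapamycin array 2 (0.0675) or DMSO array 2 (0.0569), HPD without Rapamycin array 1 (0.0842), Rapamycin array 2 (0.249) or DMSO array 1 (0.35), and PTCH1 without Rapamycin array 1 (0.051) or DMSO array 1 (0.0679).

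Among the largest falls, HSPB8, a small heat shock protein of chaperone-assisted autophagy, was detected on both DMSO arrays and on neither Rapamycin array. Its log2 levels were 5.26 and 5.29 under Rapamycin, against 6.41 and 6.73 in DMSO, at least 1.57-fold lower (adjusted p = 0.00234). EIF5A2, an isoform of a translation factor, had 6.96 and 7.33 under Rapamycin, against 8.04 and 8.19 in DMSO (−0.97 ± 0.13, adjusted p = 0.00128). A dimmer EIF5A2 probe moved by only −0.57. LINC02901, a long noncoding RNA, had 5.69 and 6.28 under Rapamycin, against 7.07 and 7.00 in DMSO (−1.05 ± 0.17, adjusted p = 0.003). HSPB8, EIF5A2 and LINC02901 were in the core beside SLC1A3 and ASNS. The matrix metalloprotease MMP7 was at least 1.83-fold lower (5.99 and 5.62 under Rapamycin, below background, against 6.68 and 6.91 in DMSO, adjusted p = 0.00932) and was lost without Rapamycin array 2 (0.0944) or DMSO array 2 (0.0745). A second MMP7 probe moved by −0.59, against −0.99 for the first. The ubiquitin ligase RNF168 (at least 1.32-fold lower) and the noncoding RNA LINC00636 (at least 1.37-fold lower) were also below background on both Rapamycin arrays. SCG5, a chaperone of prohormone processing (−1.15), RUNDC3B (−1.09) and KIAA1217 (−0.98) complete the list with SESN3. RNF168 was lost without Rapamycin array 1 (0.0561) or DMSO array 1 (0.0695), RUNDC3B without the same arrays (0.0547 and 0.0693), and LINC00636 without Rapamycin array 2 (0.075) or DMSO array 1 (0.0691). SCG5 (0.0803, 0.0537 and 0.0631) and KIAA1217 (0.163, 0.0691 and 0.0868) were lost without Rapamycin array 2, DMSO array 1 or DMSO array 2.

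In the lists of cell identity, keratins KRT7 and KRT80 were the only 2 of 24 epithelial genes tested (of 30) that rose (8.33%, against 3.53% of all genes), and 0 fell. KRT80 had 10.08 and 10.12 under Rapamycin, against 9.69 and 9.55 in DMSO (0.48 ± 0.10, adjusted p = 0.00916), and was lost without Rapamycin array 2 (0.0695) or DMSO array 2 (0.0767). Of 14 mesenchymal and contractile genes tested (of 22), 2 rose (14.3%) and 0 fell. AXL, a receptor tyrosine kinase, had 10.74 and 10.57 under Rapamycin, against 10.02 and 10.02 in DMSO, was in the core (0.64 ± 0.11, adjusted p = 0.00518) and moved by 0.58 on a second probe. Smooth-muscle actin ACTA2 (0.50, adjusted p = 0.0221) was lost without any 1 array (0.0506 to 0.158). Among 19 invasion and matrix genes tested (of 32), 1 rose (5.26%) and 2 fell (10.5%, against 4.09% of all genes). Integrin ITGB4 rose (12.71 and 12.96 under Rapamycin, against 12.18 and 12.13 in DMSO, 0.68 ± 0.12, adjusted p = 0.00434, lost without Rapamycin array 2 at 0.0571), while MMP7 and osteopontin SPP1 (−0.60, adjusted p = 0.046) fell. SPP1 was lost without any 1 array (0.0915 to 0.238) and under median scaling.

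Of 19 p53 targets tested (of 20), 2 rose (10.5%, against 3.53% of all genes) and 0 fell. The stress cytokine GDF15 had 13.35 and 13.09 under Rapamycin, against 12.32 and 12.33 in DMSO (1.85-fold higher, 0.89 ± 0.17, adjusted p = 0.00632). GDF15 was lost without Rapamycin array 1 (0.0549) or DMSO array 1 (0.0508), and TP53I3 (0.39, adjusted p = 0.0166) without any 1 array (0.0581 to 0.115), with a second TP53I3 probe at −0.20. In the list of NFIL3 and clock genes 2 of 14 tested (of 20) fell (14.3%, against 4.09% of all genes): NFIL3 itself and BHLHE40, a repressor of the clock. BHLHE40 was in the core, with 10.91 and 10.97 under Rapamycin, against 11.65 and 11.55 in DMSO (−0.66 ± 0.10, adjusted p = 0.0024). Of 17 NRF2 targets tested (of 21), AKR1C3 (−0.68, adjusted p = 0.0138), HMOX1 (−0.42, adjusted p = 0.0294) and GCLM (−0.54, adjusted p = 0.0305) fell (17.6%) and 0 rose. A dimmer GCLM probe moved by only −0.26. AKR1C3 was lost without Rapamycin array 2 (0.112), DMSO array 1 (0.0626) or DMSO array 2 (0.0823), HMOX1 without Rapamycin array 1 (0.203), DMSO array 1 (0.102) or DMSO array 2 (0.135), and GCLM without any 1 array (0.0647 to 0.196).

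Rapamycin was set against the other inhibitors within the NFIL3 line, where the DMSO arrays do not enter. The doses differ (33.3 nM against 3.3 µM), so these values compare the treatments as given. Against LY294002, 2000 genes differed (16.5% of those tested), 982 higher (8.09%) and 1018 lower (8.38%) under Rapamycin. Under median scaling in place of quantile normalization the split was 1117 higher and 668 lower. Genes of cell division and ribosome assembly were among those higher under Rapamycin than under LY294002: 14 of 32 G2/M genes were higher and 0 lower (median 0.41), 14 of 33 replication genes were higher and 1 lower (0.33), 12 of 38 ribosome biogenesis genes were higher and 1 lower (0.21) and 8 of 23 nucleotide synthesis genes were higher and 0 lower (0.23), against a median of 0.01 over all genes. Of 23 FOXO targets, 1 was higher and 10 were lower (−0.37). FOXM1, a transcription factor of mitotic genes, had 10.70 and 10.49 under Rapamycin, against 9.90 and 9.50 under LY294002 (0.90 ± 0.16, adjusted p = 0.0015). NOP14 of the small ribosomal subunit's assembly differed by 0.66 (adjusted p = 0.000291), the replication helicase subunit MCM5 by 0.81 (adjusted p = 0.00191) and ribonucleotide reductase RRM2 by 0.77 (adjusted p = 0.00268). The FOXO target KLF6 had 11.51 and 11.52 under Rapamycin, against 12.27 and 12.30 under LY294002 (−0.77 ± 0.12, adjusted p = 0.000817), and IRS2 differed by −0.56 (adjusted p = 0.00108). These 6 calls, FOXM1, NOP14, MCM5, RRM2, KLF6 and IRS2, held without each array of either group in turn.

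The amino acid lists against LY294002 are set beside the 8.09% higher and 8.38% lower of all genes. Of 23 ATF4-list genes, 4 were higher under Rapamycin (17.4%) and 1 lower (4.35%). Of 22 transporters, 4 were higher (18.2%) and 2 lower (9.09%), and of 18 synthetases, 5 were higher (27.8%) and 1 lower (5.56%). In cholesterol synthesis 1 of 21 was higher (4.76%) and 2 were lower (9.52%), which is no share well above that of all genes. ASNS, HMGCS1 and SLC1A3 did not pass this test. ASNS read 11.75 and 11.81 under Rapamycin, against 11.96 and 11.81 under LY294002, with overlapping arrays (−0.10 ± 0.11, adjusted p = 0.573, 95% interval −0.33 to 0.13). HMGCS1 differed by less than 0.01 in size (adjusted p = 0.994), and SLC1A3 by −0.19 (adjusted p = 0.426). A p above the threshold does not show that the treatments act alike. HK2 did differ, with 9.51 and 9.54 under Rapamycin, against 8.70 and 8.88 under LY294002 (0.74, adjusted p = 0.000579). The largest single differences from LY294002 were rises of the duodenal transcription factor PDX1 (1.44), keratin KRT13 (1.43), the bile acid binding protein FABP6 (1.38) and laminin LAMA2 (1.20), and falls of the noncoding RNAs SCARNA14 (−1.96), SNORD13 (−1.77), RNU4-2 (−1.75), RN7SK (−1.65) and SCARNA8 (−1.61). GBP2, a guanylate-binding protein, was below background on both Rapamycin arrays and at least 2.62-fold lower (adjusted p = 0.000502). TRIM16L (at least 1.93-fold higher) and GREB1 (at least 1.25-fold higher), below background under LY294002, were lost without any 1 array (0.0503 to 0.163 for TRIM16L and 0.0806 to 0.107 for GREB1).

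Against SB203580, 4056 genes differed (33.4%), 2208 higher (18.2%) and 1848 lower (15.2%) under Rapamycin. Here G2/M genes were lower under Rapamycin, with 18 of 32 lower and 1 higher (median −0.44), as were cholesterol synthesis (14 of 21 lower, 2 higher, median −0.43) and the ATF4 list (11 of 23 lower, 3 higher, median −0.33). Higher under Rapamycin were 12 of 23 FOXO targets (2 lower, median 0.32), 11 of 19 p53 targets (2 lower, median 0.42), 11 of 28 interferon response genes (0 lower, median 0.25) and 14 of 42 lysosome and autophagy genes (4 lower, median 0.06). ASNS had 11.75 and 11.81 under Rapamycin, against 13.29 and 13.45 under SB203580 (−1.59 ± 0.11, adjusted p = 2.201e-07). TRIB3 differed by −1.05, CCNB1 by −0.90 and SC5D by −0.83. GAA had 10.25 and 10.15 under Rapamycin, against 9.01 and 8.93 under SB203580 (1.24 ± 0.09, adjusted p = 3.607e-07), and the lysosomal proteases CTSD and TPP1 differed by 0.83 and 0.74.

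KRT7 was below background on both SB203580 arrays and at least 3.68-fold higher under Rapamycin (7.85 and 8.09, against 5.64 and 5.27 under SB203580), and KRT80 had 10.08 and 10.12 under Rapamycin, against 7.77 and 7.90 under SB203580 (2.26 ± 0.10, adjusted p = 5.456e-10). IFITM1, an interferon-induced membrane protein (at least 2.44-fold), the lipid exporter ABCA1 (at least 3.26-fold), the aldehyde dehydrogenase ALDH3B1 (2.11 on the log2 scale) and SAMD11 (2.06) were the other large rises. NAV2 (−2.05), the ribosomal RNA gene RNA18SN5 (−1.83), the endosomal tether EEA1 (at least 2.27-fold lower), HTATSF1P2 (−1.62) and the kinase DCLK1 (−1.60) were the large falls beside ASNS. A second NAV2 probe did not differ between Rapamycin and DMSO (0.06, against −0.91 for the first). Every call named here against SB203580 held without each array of either group.

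**Figure D4:**
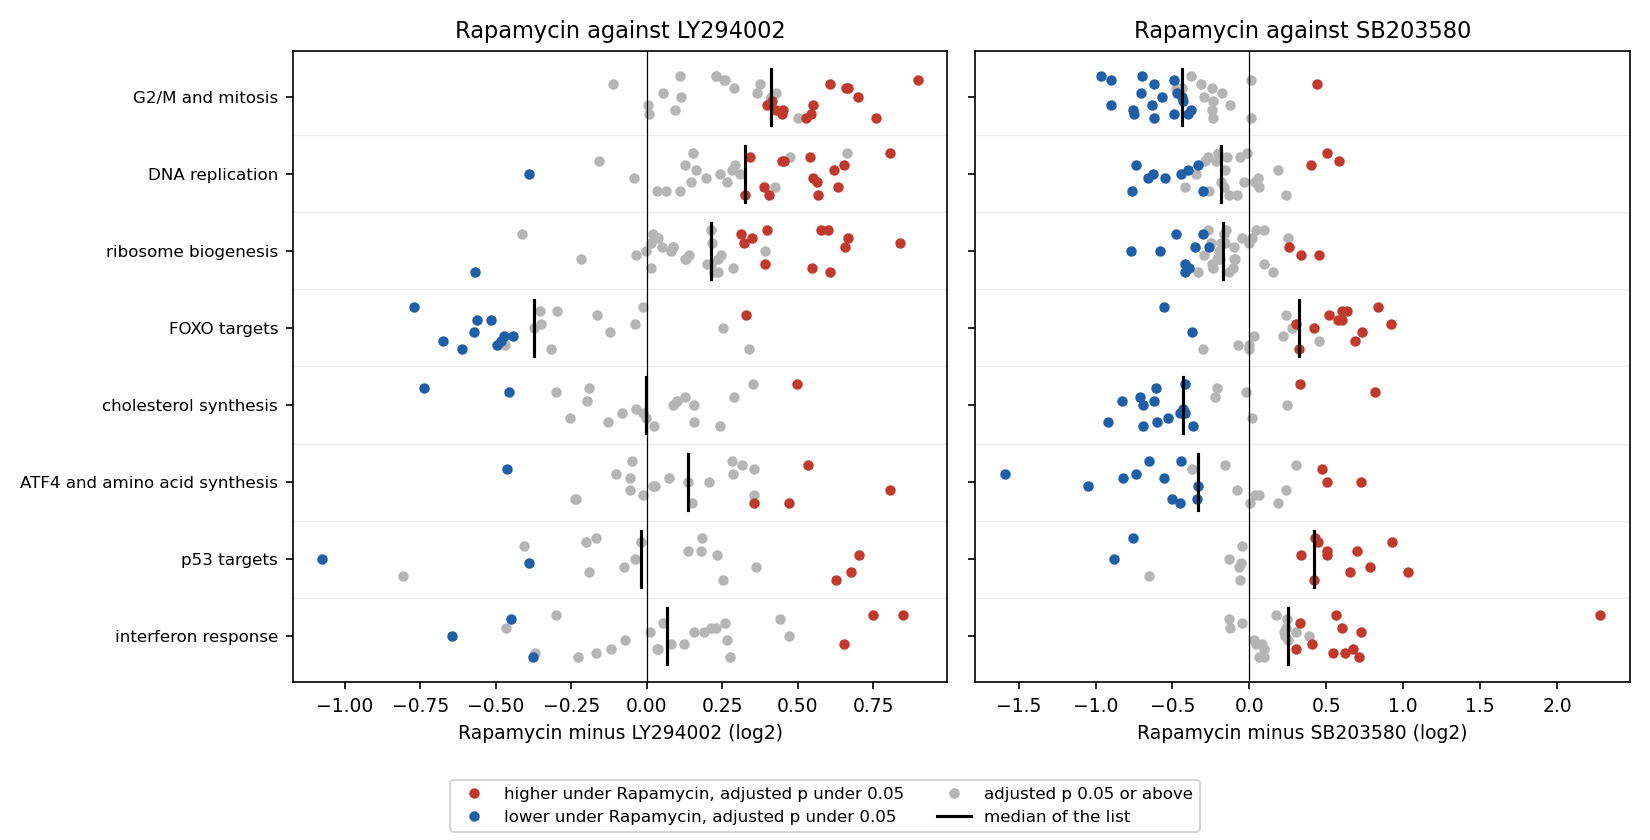
Difference (log2) of Rapamycin from LY294002 (left panel) and from SB203580 (right panel) in the NFIL3 line for members of 8 gene lists, 1 point a gene, with the median as a bar. G2/M genes have a median of 0.41 against LY294002 and of −0.44 against SB203580, and FOXO targets −0.37 and 0.32.

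Levels in the control line in DMSO were set beside those of the NFIL3 line. The differences of both NFIL3 line groups from it share the control arrays, so the values are given side by side with no measure of likeness. The genes named here and in the next paragraph were chosen by their difference between Rapamycin and DMSO. The same NFIL3 line arrays thus enter both that choice and the values below. No return to the control level, or move away from it, can be read from these genes. Of all genes tested, 31.3% differed from the control line under Rapamycin and 14.1% in DMSO. HMGCS1, INSIG1, LSS, SC5D and ACSL1 lay near the control line under Rapamycin (0.27, −0.09, 0.25, 0.23 and −0.15, adjusted p from 0.0516 to 0.613), against differences of 0.84, 0.61, 0.81, 0.83 and 0.60 in DMSO (adjusted p from 0.0001004 to 0.00552). LPIN1 differed from the control line by 0.23 under Rapamycin (adjusted p = 0.128), against 0.87 in DMSO (0.00019). KRT7, CPA4 and AXL also lay near the control line under Rapamycin (−0.03, 0.07 and 0.08, adjusted p from 0.642 to 0.938), against −1.30, −0.96 and −0.56 in DMSO (adjusted p from 0.000592 to 0.00485).

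Other genes were further from the control line under Rapamycin than in DMSO. ASNS lay 1.62 below the control arrays (13.43 and 13.38) under Rapamycin on the log2 scale (−1.62, adjusted p = 1.908e-07), against −0.58 in DMSO (adjusted p = 0.00306). The same order held for SLC1A3 (−1.80 under Rapamycin, −0.56 in DMSO), YARS1 (−1.13 and −0.52), SLC7A5 (−0.97 and −0.62), PSAT1 (−1.03 and −0.59) and HK2 (−1.37 and −0.78), all past the threshold in both. On the higher side were TM7SF2 (1.60 under Rapamycin, 1.17 in DMSO) and GDF15 (1.68 and 0.79).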

How the data were processed

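RNA of 24 SW480 cultures (12 groups of 2) was taken up in Trizol, cleaned on RNeasy columns and labelled with an Ambion TotalPrep kit, per the labels' protocols, and read on Illumina bead arrays with GenomeStudio 2010.1 and Partek, per the submitters' processing notes. The authors deposited raw signal intensity and a detection p-value per probe and array, and processed intensity values, which served as an alternative. Of 47323 probes, 30113 had 1 gene symbol, 8 several and 17202 none. Here intensities were background-corrected with normexp on the detection p-values, quantile normalized and put on the log2 scale (limma 3.58.1, neqc, offset 16, R 4.3.3). Probes with a detection p under 0.01 on at least 2 of 24 arrays were kept (21608), and the brightest probe stood for a gene (12141 genes, 3479 with several probes). limma fitted 12 group means over all 24 arrays (residual df 12, prior df 4.44), and p-values were adjusted over all genes by the Benjamini-Hochberg method. A gene below background on both arrays of 1 group has an "at least" fold, against the higher of its own signal and the lowest detected signal of each array.

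The number of arrays limits the precision. On simulated data of this design with 200 changed genes, 56.5% of changes of 0.58 and 94.5% of changes of 1 on the log2 scale were found. Of the calls made, 4.24% and 6.9% were false. The simulated noise took its spread from this same fit and was independent between genes and arrays. These shares thus leave out array effects and deviations that genes share, and do not show how many of the 924 calls are true. The gene lists and members were chosen with earlier results of these data known. Named are the 12 largest rises and falls past the threshold with no overlap and detected on both arrays of a group, the markers ASNS, SLC1A3 and HMGCS1, NFIL3, MTOR and FKBP1A, members of described lists that passed the test or had the smallest p, and the 6 largest differences each way from LY294002 and SB203580. Alternatives changed the background correction, scaling, filter, probe choice, samples and replicate block. Replicate numbers did not mark shared deviations between the Rapamycin and DMSO groups (r = 0.0086 over genes, 2 pairs). This value covers only those groups and does not exclude a shared batch. Promoters are RefSeq windows, build GRCh38.p14. Figures used Python 3.11.15 and matplotlib 3.10.9.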

Additional observations from a re-analysis of the deposited data

How the results depend on the processing

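Against DMSO, the counts of genes higher and lower under Rapamycin were 428 and 496. They became 0 and 0 with the 4 arrays alone, and 265 and 288 with no filter on dim probes, where 20046 genes were tested. Leaving out 1 array gave 72 to 142 higher and 84 to 199 lower genes. Against LY294002, median scaling gave 668 lower genes and the 4 arrays alone 289 higher and 475 lower. Leaving out 1 array gave 366 to 601 higher and 455 to 643 lower genes. Against SB203580, the 4 arrays alone gave 1218 lower genes, and leaving out 1 array 1436 to 1671 higher and 1160 to 1277 lower. Apart from the construction of settings with fewer arrays or more genes tested, the cause was not tested. The other settings moved these counts by less than 1.5 times: the authors' processed values, no background correction, mean of all kept probes, a stricter detection filter and the replicate block (408 higher and 479 lower against DMSO). The replicate numbers of the Rapamycin and DMSO arrays marked no shared deviations over genes, which does not exclude a shared batch. Of 103 named genes against DMSO, 102 kept their direction in every setting run and 18 stayed called without each array in turn. The exception in direction was PSMC6, at 0.0232 (adjusted p = 0.952) with the mean of its probes, since its dimmer probe moved the other way. Chip as a block was not run, because the headers used here give no chip. Dim genes near background give only bounds.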

Other observations

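Other genes outside the lists were called against DMSO in the full fit and without each of the 4 arrays, and these were chosen after their values were seen. IDUA, a lysosomal iduronidase, had 10.21 and 10.07 under Rapamycin, against 9.16 and 9.39 in DMSO (0.86, adjusted p = 0.00348). GRN, progranulin, had 12.04 and 12.13 under Rapamycin, against 11.46 and 11.49 in DMSO (0.61, adjusted p = 0.00471). The membrane transporters SLC4A3, an anion exchanger (9.30 and 9.21 under Rapamycin, against 8.38 and 8.24 in DMSO, adjusted p = 0.0001996), and ABCC3, an efflux pump (12.90 and 12.82 under Rapamycin, against 12.00 and 11.89 in DMSO, adjusted p = 0.00234), rose by 0.94 and 0.92. For all 4 genes the groups did not overlap, as for each of the 924 called genes and 54.4% of all genes tested.

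Among the falls were 2 genes of extracellular lipid handling. LIPG, endothelial lipase, had 7.89 and 7.82 under Rapamycin, against 8.75 and 8.71 in DMSO (−0.88, adjusted p = 0.000767). ANGPTL4, an inhibitor of lipoprotein lipase, had 8.20 and 8.33 under Rapamycin, against 8.96 and 8.86 in DMSO (−0.64, adjusted p = 0.00434). The chaperone HSPA4L (−0.91, adjusted p = 0.00064) and the DNA-binding protein ARID5B (−0.91, adjusted p = 0.00234) also fell. Of 4992 kept probes without a listed gene, 198 were higher and 76 lower under Rapamycin in limma with p-values adjusted over all 21608 kept probes, where 669 were higher and 581 lower.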
